A study of Drosophila melanogaster with 6 samples.

Results

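The genes described here are 9 with little recorded about them in the female germline: Kots, Argk1, Ypel, CG6770, CG10939, CG9926, CG5191, CG14932 and CG15930. They were chosen from 10844 measured genes because their signal was among those most above Kc in germline stem cells (GSC), and every probe set annotated to 1 of them alone was kept. This gave 10 probe sets of 13966, 2 for Argk1 and 1 for each of the other 8 genes. The GSC and Kc signals therefore chose the genes, and their levels and folds are given below as a description, with no test. The GSC RNA came from purified germline stem cells of bam mutant Drosophila melanogaster ovaries, in 3 samples. The Kc RNA came from Kc cells, a Drosophila tissue culture line of embryonic origin, also in 3 samples. The labels give no bam allele, fly age or number of ovaries, and do not say whether the samples of a group were separate preparations. GSC from ovaries overexpressing Dpp, another group of the design, were not analysed here.

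Germline stem cells sit at the tip of the ovary and divide to renew themselves and to produce daughters that form egg chambers. The differentiation factor bam is needed for the daughters to leave the stem cell state, so undifferentiated germ cells accumulate when it is mutated. Germline transcripts include those of enzymes, RNA-binding proteins and chromatin proteins as well as regulators of stem cell fate.

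What is known of the 9 genes differs. Argk1 encodes arginine kinase, which moves phosphate between ATP and arginine and so keeps an energy store in invertebrate cells, best known in muscle. Ypel belongs to the Yippee-like family of small conserved zinc-binding proteins, and the RefSeq gene table lists dYPEL3 among its synonyms. That table lists p8 for CG6770, the name of a small chromatin-associated stress protein in mammals. It lists Sip1 for CG10939, a scaffold protein related to mammalian NHERF that works with the kinase Slik on the membrane linker Moesin. CG15930 carries the synonym Tdrd5l, a Tudor domain gene studied in the male germline. The "poorly known" label is thus loose for CG10939 and CG15930. No role is given here for Kots, CG9926, CG5191 and CG14932.

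The arrays reported 1 signal per probe set, and those signals were already scaled by the authors to a common level. The labelled cell types were checked against their markers. All 6 germline marker genes measured, vas, nanos, piwi, aub, zpg and orb, were called higher in GSC, and their summed signal was 30898 to 34865 on GSC arrays against 322.7 to 377 on Kc arrays. All 5 hemocyte-like markers, Hml, Pxn, srp, Glt and Pvr, were called lower in GSC. In RNA from pooled cells, more cells of a type and more RNA per cell cannot be told apart. For actin, the 3' control probe set gave 4.22 to 4.77 times the signal of the 5' one on GSC arrays and 1.76 to 1.90 times on Kc arrays. The same ratio for GAPDH was 4.63 to 6.09 on GSC arrays and 3.46 to 3.92 on Kc arrays, and for eIF-4a it was 5.21 to 7.03 on GSC arrays and 3.43 to 3.95 on Kc arrays. All 3 ratios moved with the groups, and their part in the values below was not tested.

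A difference from Kc is given as a log2 fold, the mean log2(signal + 38) in GSC minus that in Kc. The added 38 is the 25th percentile over the whole deposited table, and it shrinks the differences of dim probe sets. Elsewhere on the array a probe set was called where limma's adjusted p was below 0.05 and the fold at least 2. By that rule 11.7% of all probe sets were called higher in GSC and 8.11% lower. All 10 probe sets of the 9 genes were called higher, a count that follows from how they were chosen. The GSC arrays lay above the Kc arrays without overlap for all 10, and for 25.7% of all probe sets. The median log2 fold of the 9 genes was 5.22, against 0.03 for all probe sets.

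Argk1, the arginine kinase gene, was seen by 2 probe sets. The brighter had signals of 5960.5, 5715.7 and 5646.4 in GSC, against 47.6, 13.5 and 121.5 in Kc. The GSC arrays lay close together, whereas the Kc values lay on both sides of the 25th percentile. The log2 fold was 6.03. The dimmer probe set had 1276, 1379.7 and 1462.9 in GSC against 46.3, 36 and 36.4 in Kc, a log2 fold of 4.19. Both placed every GSC array above every Kc array. RefSeq lists 7 transcripts for Argk1, the most of the 9 genes, and which of them each probe set detects is not known here.

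Because arginine kinase is abundant in muscle, and ovaries have a muscle sheath, muscle markers were set beside it. Of 14 listed, 10 were measured, and limma called 0 higher and 1 lower (1 and 2 at an unadjusted p under 0.05). Among all genes, 12.5% were called higher and 8.02% lower. Their summed signal was 4288 to 4653 in GSC and 12543 to 13481 in Kc. Most of it came from the probe set annotated to the actin gene Act87E. That probe set was also the 1 called lower. Whether it detects other actin genes as well was not tested, so its signal cannot be assigned to Act87E alone. Without it the sum was 476.6 to 582.4 in GSC and 613.2 to 957.1 in Kc. No marker was at 0. Mlc1, a myosin light chain gene, averaged 21.5 ± 7.38 in GSC and 20.5 ± 2.06 in Kc. The tropomyosin gene Tm2 averaged 19.1 ± 10.4 in GSC against 18.2 ± 5.80 in Kc (SD, n = 3 for both genes). Both were at the level of control probe sets with no fly target, described below. A second myosin light chain gene, Mlc2, was above those controls in both groups. It averaged 206.4 ± 24.7 in GSC against 378.4 ± 43.0 in Kc (SD, n = 3, log2 fold -0.77, limma adjusted p = 0.00907), short of the fold minimum. Another marker, bt, a giant muscle protein gene, went the other way, with 33.5, 78.4 and 23.1 in GSC against 6.8, 5.3 and 3.2 in Kc. Its groups did not overlap, and its log2 fold of 0.89 ± 0.246 (SE, limma adjusted p = 0.0183) passed the p threshold but not the fold minimum. The bt means of 45.0 in GSC and 5.1 in Kc were both within the range of those controls. Of the 10 measured markers, 2 had a mean above the controls in GSC and 2 in Kc. The part of muscle RNA in the Argk1 signal was not tested. Other enzymes that buffer ATP were listed beside Argk1. Of 7 genes, 3 were measured and limma called 0 of them (1 at an unadjusted p under 0.05), with a median log2 fold of 0.19 against 0.04 for all genes. Ak6, an adenylate kinase gene, had an adjusted p of 0.00481 with a log2 fold of 0.83 ± 0.177 (SE), below the fold minimum, and it was called with scaling to the hybridisation controls (1.26). It averaged 1069 ± 168 in GSC and 588.4 ± 114 in Kc. Argk2, which lies next to Argk1 on the chromosome, was not analysed here.

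**Figure D1:**
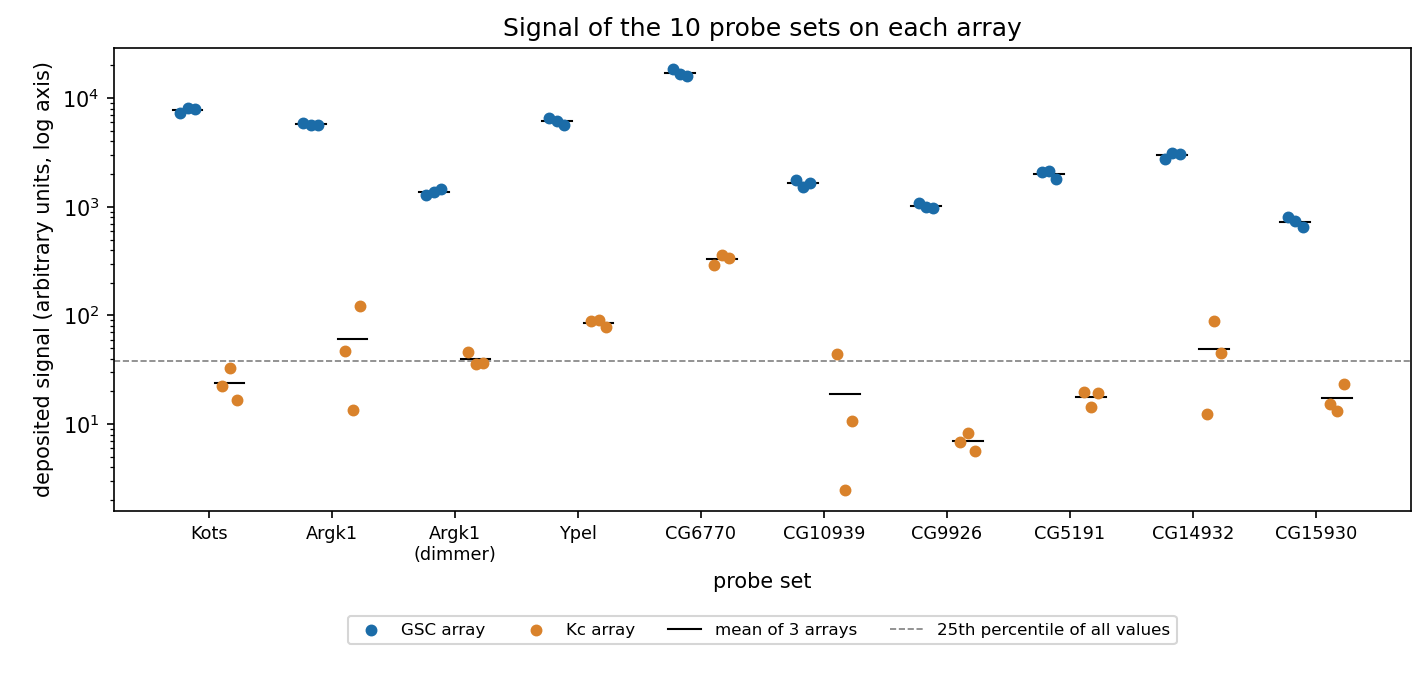
Deposited signal on a log axis for each of the 10 probe sets, with the 3 GSC arrays (blue) left of the 3 Kc arrays (orange), black bars at the group means and a dashed line at the 25th percentile of all values, 38. Every GSC point lies above every Kc point of the same probe set, and most Kc points lie near or under the dashed line, with CG6770 and Ypel above it on all 3 Kc arrays.

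Ypel and CG6770 were the only genes of the 9 with all 3 Kc arrays above 38, so that their folds depend least on the transformation. Ypel, the Yippee-like gene, had 6544.4, 6163.1 and 5688.8 in GSC against 89.5, 90 and 77.8 in Kc. Its Kc arrays agreed within a coefficient of variation of 8.05%, the smallest of the 10 probe sets, and the log2 fold was 5.64. RefSeq has Ypel partly overlap the antisense RNA gene asRNA:CR44894 and contain the noncoding RNA gene lncRNA:CR43899. Neither was measured, and where the Ypel probe set lies is not known here. CG6770, the p8 gene, had 18422.8, 16561.2 and 16070.1 in GSC against 294.5, 359.5 and 341.4 in Kc, a log2 fold of 5.53. Its Kc signal reached percentile 66.2 of a Kc array, so Kc cells gave a mid-range signal for this probe set. Its dimmest GSC array had 44.7 times the signal of its brightest Kc array. The same ratio was 63.2 for Ypel.

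The human relative YPEL5 is found with the CTLH complex, a ubiquitin ligase that in Drosophila removes maternal RNA-binding proteins after egg activation, so genes of that complex and its targets were listed. Of 12 listed, 7 were measured. Of these, limma called 3 higher in GSC, 0 lower and 4 neither (4 higher and 2 lower at an unadjusted p under 0.05). Over all genes 12.5% were called higher and 8.02% lower. The list is short and was chosen with earlier results of these data known. The median log2 fold was 0.69 against 0.04 for all genes. RanBPM, a scaffold subunit, had 2048.8, 1837.4 and 1753.3 in GSC against 772.5, 778.8 and 930 in Kc (log2 fold 1.15 ± 0.125 SE, limma adjusted p = 6.35e-05). CG7611 had a log2 fold of 1.47 ± 0.132 (adjusted p = 1.76e-05), and me31B, a helicase of maternal RNA particles and a target of the complex, averaged 2973 ± 63.3 in GSC and 1280 ± 163 in Kc (adjusted p = 3.46e-05). The groups did not overlap for any of these 3. The 2 subunit genes Sou and Hou were lower in GSC without overlap, with log2 folds of -0.46 (adjusted p = 0.0162) and -0.52 (adjusted p = 0.00913) that passed the p threshold but not the fold minimum. The listed gene muskelin was higher in GSC without overlap, and it too missed only the fold minimum (log2 fold 0.69, adjusted p = 0.027). Yippee, the closer fly relative of YPEL5, was not analysed here.

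CG10939, the Sip1 scaffold gene, had 1748.2, 1522.5 and 1651.8 in GSC against 44, 2.5 and 10.6 in Kc. The Kc values were the most uneven of the 10 probe sets, with a coefficient of variation of 116%, and only Kc 1 stood above 38. The log2 fold was 4.94, and 5.24 without Kc 1. Known partners were set beside it. Moe, the Moesin gene, had 5296, 3949.6 and 3426.8 in GSC against 3392, 5196.2 and 5276.1 in Kc, with the groups overlapping (log2 fold -0.12 ± 0.199 SE, limma adjusted p = 0.704). Slik had a log2 fold of -0.17 ± 0.161 (adjusted p = 0.492). Of the 8 genes listed as Moesin regulators or as sodium-proton exchangers, the transporters that gave the NHERF family its name, 1 was called higher, 1 lower and 6 neither, and the median log2 fold was -0.03. The shares over all genes were 12.5% higher and 8.02% lower. The phosphatase gene Pp1-87B was the one called higher, at 7847 ± 583 in GSC against 3103 ± 411 in Kc (SD, n = 3, adjusted p = 1.62e-05). The exchanger gene Nhe2 was the one called lower, by the brighter of its 2 probe sets, at 109 ± 13.7 in GSC against 286.7 ± 21.5 in Kc (adjusted p = 0.0021). That call was lost with the pseudocount at the median (log2 fold -0.73) and with scaling to the hybridisation controls (-0.76), against -1.14 as reported. Another exchanger gene, Nhe3, was higher in GSC without overlap (log2 fold 0.59, adjusted p = 0.0372) but short of the fold minimum.

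CG15930, the Tdrd5l gene, had the smallest fold of the 9 genes. Its signals were 798.2, 739.7 and 653.6 in GSC against 15.4, 13.1 and 23.3 in Kc, a log2 fold of 3.80. The groups were far apart, and all 3 Kc values lay under 38, where the transformation compresses a difference most. The lowest GSC array had 28.1 times the signal of the highest Kc array.

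Kots, by contrast, had the largest fold. Its signals were 7347.9, 8123 and 7887.8 in GSC against 22.5, 32.9 and 16.8 in Kc, a log2 fold of 6.98. The dimmest GSC array had 223.3 times the signal of the brightest Kc array, the widest separation of the 10 probe sets. CG9926, which has 1 measured gene between it and Kots on chromosome arm 3R, had 1078.6, 997 and 980.1 in GSC against 6.9, 8.3 and 5.7 in Kc, a log2 fold of 4.55. Its Kc signals reached no higher than percentile 5.86 of a Kc array. In RefSeq, CG9926 partly overlaps the protein-coding gene CG31517, which was not measured. Where the CG9926 probe set lies is not known here.

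CG5191 had 2077.9, 2149.7 and 1797 in GSC against 19.8, 14.5 and 19.4 in Kc, a log2 fold of 5.19. RefSeq lists 6 transcripts for it and places CG10877 inside it. The CG10877 probe set averaged 100.5 ± 50.5 in GSC against 84.3 ± 65.1 in Kc and was not called. CG14932 had 2765.9, 3124.1 and 3082.8 in GSC against 12.5, 89.3 and 45.5 in Kc. The Kc values were uneven, with Kc 2 the highest, and the log2 fold was 5.22, or 5.54 without Kc 2.

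**Figure D2:**
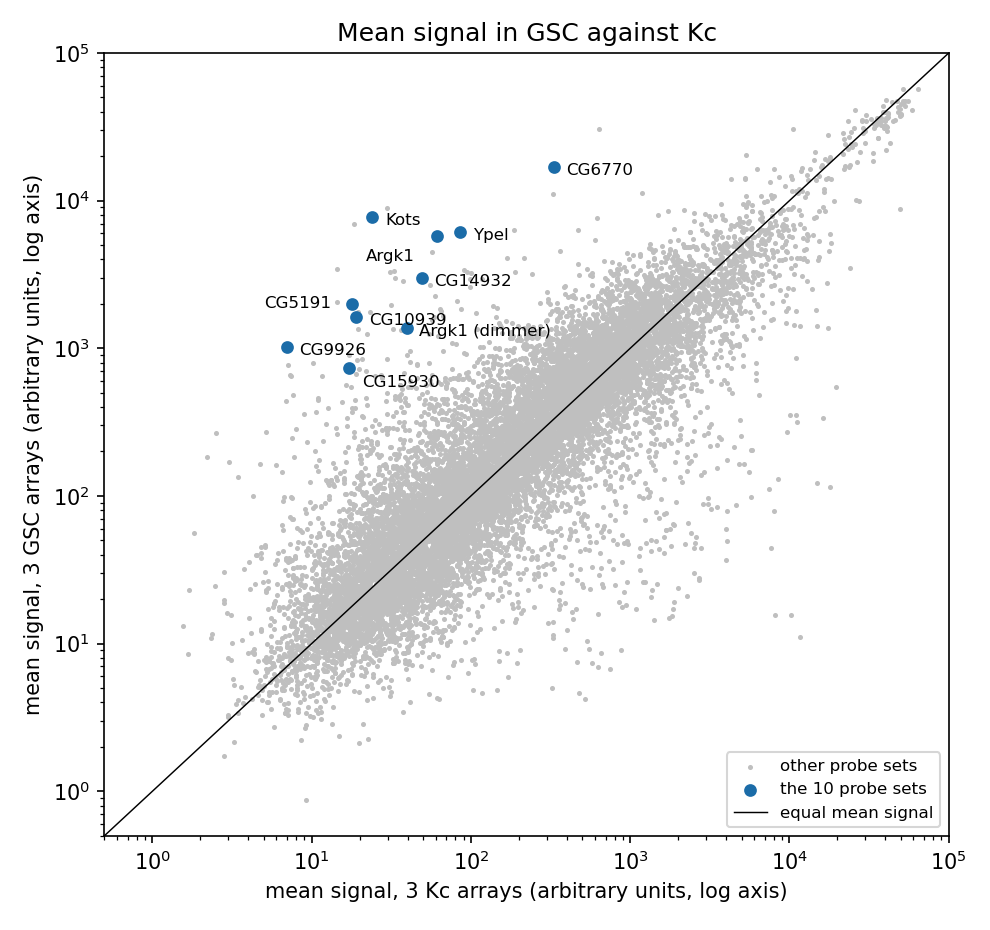
Mean signal of the 3 GSC arrays (vertical, log axis) against that of the 3 Kc arrays (horizontal, log axis) for every probe set except array controls (grey), with the 10 probe sets in blue and the line of equal signal in black. The blue points lie toward the upper left edge of the cloud, with CG6770 farthest to the right at 331.8 in Kc.

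How low the Kc signals were was judged against probe sets that should find no fly RNA. The table has no detection calls, but the array carries 8 control probe sets for mouse and yeast genes. These gave 4.9 to 76.6 on GSC arrays and 3.2 to 121.3 on Kc arrays, with a median of 22.1 in GSC and 24.8 in Kc. Of the 30 Kc values of the 10 probe sets, 26 were at or under 121.3 and 18 were under 38. The Kc arrays thus gave 8 of the 10 probe sets no value beyond the range of these controls, the exceptions being CG6770 on all 3 arrays and the brighter Argk1 probe set on Kc 3 alone. That Argk1 value, 121.5, was at percentile 45.5 of its array, so the range takes in many other probe sets as well. The share of all probe sets within it was not counted. The genes were chosen for a high GSC over Kc ratio, so low Kc values follow in part from the choice. The limit of 121.3 rests on 1 control value, on Kc 1. Without the Kc 1 controls it was 79.9, and 6 probe sets stayed within it, with Ypel and CG14932 beyond. Against the controls of the same array 6 probe sets also stayed within, since Ypel and CG14932 exceeded the Kc 2 maximum of 55.4. Probes differ in how strongly they bind, so this range is a gauge and not a detection limit. For the GSC arrays the picture was the reverse, since even the lowest GSC value, 653.6 for CG15930 on GSC 3, was at percentile 75.6 of its array.

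Within GSC the 10 probe sets were measured tightly. Their coefficients of variation over the 3 GSC arrays ran from 2.86% for the brighter Argk1 probe set to 9.96% for CG15930, with a median of 6.86%. Over the 3116 probe sets with a mean GSC signal at least that of CG15930, the median was 8.62%, and 8 of the 10 probe sets were below it. Those 3116 were matched by this lower limit only and not by brightness above it. The GSC signals also chose the genes, so the count is a description and shows no trait of these genes. No single GSC array carried the high values. GSC 1 was the highest of the 3 for 6 probe sets, GSC 2 for 3 and GSC 3 for 1, while GSC 3 was the lowest for 6. In Kc the coefficients ran from 8.05% to 116%, and on the log2 scale the SD was larger in Kc than in GSC for 6 of the 10.

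Ordered by fold among the 10844 genes, the 9 genes held ranks 2, 5, 7, 12, 15, 16, 18, 29 and 50, from Kots, Argk1, Ypel, CG6770, CG14932, CG5191, CG10939 and CG9926 down to CG15930. The choice had no stated threshold. Next above CG15930 came Phs, at a log2 fold of 3.80, and next below it BigH1, an embryonic linker histone gene also used in the germline, at 3.78, so no gap separated CG15930 from the genes around it. The other 41 genes down to rank 50 were not among the 9. Kots fell between nanos (7.14) and vas (6.98), both standard germline markers. Neighbours in this order are not distinguished where their folds differ by less than the spread: without 1 array or another, Argk1 ranged from 5.64 to 6.45 and CG14932 from 4.87 to 5.54, which spans the values of several others.

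The order also moves with the pseudocount. With a pseudocount of 1, which stretches differences among dim values, CG10939 stood at rank 9 with a log2 fold of 7.07 and CG9926 at rank 11 with 7.01, ahead of Ypel at rank 24 and CG6770 at rank 33. With the pseudocount at the median of all values, 162, CG6770 stood at rank 5, CG9926 at rank 47 and CG15930 at rank 69. Kots stayed within ranks 1 to 3 and CG15930 was last of the 9 in each of the 6 alternative transformations and scalings.

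**Figure D3:**
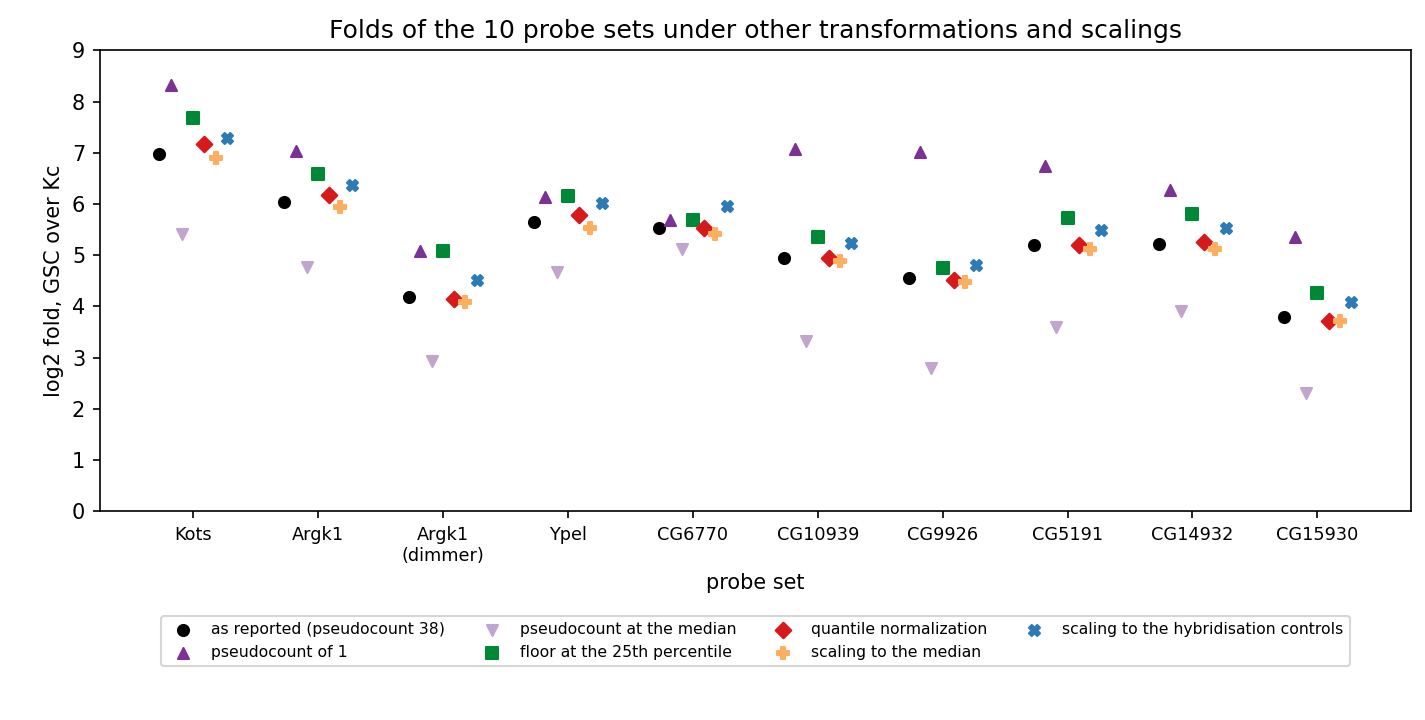
Log2 fold of GSC over Kc (vertical axis) for each of the 10 probe sets under the reported transformation (black circles) and 6 alternatives. The pseudocount of 1 and the pseudocount at the median bracket most probe sets, from 2.80 to 7.01 for CG9926, whereas CG6770 stays between 5.12 and 5.95.

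For each gene, the 2 other genes with the most similar pattern were found as the smallest root mean square distance between log2 values centred on their mean over the 6 arrays. Since the arrays form 2 groups, this distance mostly matches the size of the fold. Ypel and CG6770 were each other's nearest, at a distance of 0.116, the smallest between any pair of the 9 genes, and zpg, a germline gap junction gene, came next for both at 0.124 and 0.188. Kots was nearest to the germline helicase gene vas (0.325) and to nanos (0.398). Argk1 was nearest to piwi (0.296), an Argonaute gene that silences transposons, and to dhd (0.527), a thioredoxin gene of the female germline. CG9926 was nearest to hts (0.124), which encodes an adducin-like protein of the germline fusome, and to RpL22-like (0.177), a ribosomal protein paralog. CG10939 was nearest to CG18190 (0.218) and to ovo (0.242), a germline transcription factor gene. CG5191 was also nearest to CG18190 (0.156), followed by tej (0.176), a Tudor domain gene of the piRNA pathway. CG14932 was nearest to CG5194 (0.222) and to the Argonaute gene aub (0.292), and CG15930 to BigH1 (0.117) and CG13917 (0.128).

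By RefSeq the 9 genes lie on every major chromosome arm, 2 on X, 2 on 2L, 1 on 2R, 1 on 3L and 3 on 3R. To see whether they sat in stretches of genes that also differed, the 2 nearest measured protein-coding genes on each side were taken, a rule chosen after the values were seen. The 36 places held 33 different genes outside the 9, and 2 places were filled by Kots and CG9926, which neighbour each other. Of the 33, limma called 5 higher in GSC, or 15.2%, 0 lower (3 at an unadjusted p under 0.05) and 28 neither. Over all genes 12.5% were called higher and 8.02% lower, so the neighbours as a group were near the background. Their median log2 fold was 0.23, against 0.04 for all genes. Of the 17 nearest neighbours, 1 was called.

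That 1 gene was CG14931, which adjoins CG14932 on arm 2L. It had 666.8, 859 and 661.3 in GSC against 23.4, 19.2 and 16.6 in Kc, with no overlap (log2 fold 3.72 ± 0.226 SE, limma adjusted p = 1.41e-06). On its other side CG14932 adjoins Tsp33B, which was not called (-0.21). In Kc, CG14931 stayed within the range of the no-target controls of the same array on all 3 arrays, and CG14932 exceeded it on Kc 2.

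Around CG15930 on X, the gene at the second place was dhd, with 3498.4, 3423.2 and 3489.3 in GSC against 27.5, 8.6 and 6.9 in Kc (log2 fold 6.09 ± 0.184 SE, limma adjusted p = 3.02e-08). Between them lies CG4198, which overlaps one end of CG15930 and averaged 73.5 ± 10.1 in GSC against 51.4 ± 21.2 in Kc (SD, n = 3, log2 fold 0.34, not called). On the far side of CG15930, Sas10 was not called (0.16) and Rnp4F, an RNA-binding protein gene, was called higher with a log2 fold of 1.80 ± 0.154 (adjusted p = 1.51e-05). Called and uncalled genes thus alternated along this stretch.

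Kots and CG9926 flank Ipp, which had 990.5, 1030.8 and 896.5 in GSC against 511.2, 721.1 and 819.8 in Kc. Its log2 fold of 0.51 ± 0.174 (SE, limma adjusted p = 0.0483) was far below those of the genes on either side, and beyond Kots the replication origin gene Orc2 had -0.07 ± 0.15 (adjusted p = 0.793). The other called neighbours were CG4942, second after Argk1 (1.04, adjusted p = 0.0162), and CG2962, second after Ypel (1.05, adjusted p = 0.000367), both just over the fold minimum. Beside CG6770, the probe set that stood for CG6785 was not called (0.11), but a second one was, at 549.6 ± 147.7 in GSC against 40.2 ± 16.9 in Kc (SD, n = 3, log2 fold 2.90, adjusted p = 3.25e-05). Beyond Kots, rdx was not called by the probe set that stood for it (0.85), but its second one was called lower, at 57.4 ± 25.5 in GSC against 210.6 ± 54.4 in Kc (log2 fold -1.40, adjusted p = 0.00642). The called count fell to 3 of 33 with quantile normalization, with scaling to the median, with the pseudocount at the median and without GSC 3, and was 8 with scaling to the hybridisation controls.

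**Figure D4:**
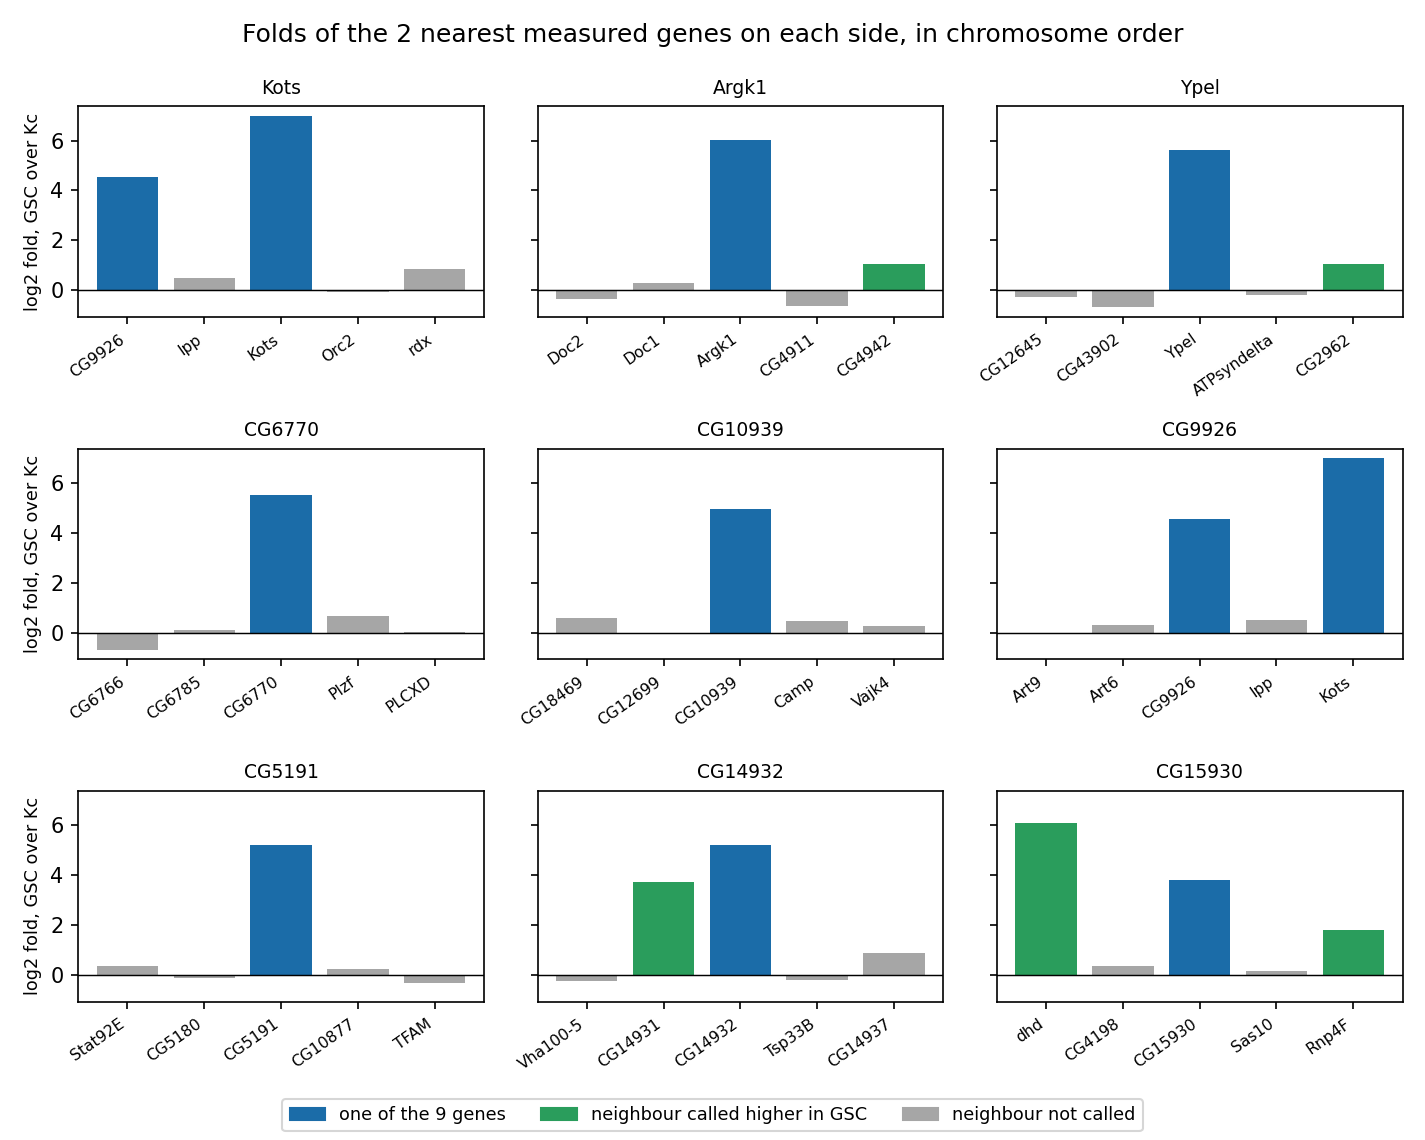
Log2 fold of GSC over Kc (vertical axis) for each of the 9 genes (blue, the middle bar of its panel) and the 2 nearest measured protein-coding genes on each side, in chromosome order, with called neighbours in green and others in grey. Most grey bars are near 0, and the tall green bars are CG14931 beside CG14932 and dhd near CG15930.

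Other cells of the ovary were looked at beside the 9 genes as a whole. For all genes the shares called were 12.5% higher and 8.02% lower. Of 10 markers of ovarian somatic cells, 9 were measured, 1 was called higher (peb) and 1 lower (zfh1), and their summed signal was 928.6 to 1305 in GSC against 3540 to 4069 in Kc. Most of the Kc sum was zfh1, and the other 8 genes summed to 756.3 to 926.1 in GSC against 620.3 to 774.6 in Kc, which turned the direction. In GSC, 5 of the 9 had a mean above 76.6, the highest no-target control value on the GSC arrays, with slbo only just above it at 76.8. Among them were bab1, at 313.9 ± 50.9 in GSC against 258.3 ± 29.7 in Kc, and bab2, at 207.9 ± 31.2 in GSC against 227.5 ± 72.5 in Kc, both transcription factor genes of the ovary's soma. The called gene peb averaged 134.1 ± 40.7 in GSC against 14.3 ± 5.36 in Kc (log2 fold 1.69, limma adjusted p = 0.00156). The follicle and niche genes tj and ptc averaged 23.4 ± 4.19 and 15.9 ± 1.70 in GSC, within the range of the no-target controls, and 35.7 ± 5.60 and 21.9 ± 6.34 in Kc (SD, n = 3 each). Of 10 fat body and yolk genes, 7 were measured and 3 were called higher, the yolk protein genes Yp1, Yp2 and Yp3, with log2 folds of 1.81, 1.57 and 2.37. The summed signal of the 7 genes was 2164 to 2329 in GSC and 725 to 968.8 in Kc, and Yp3 alone averaged 457.9 ± 132.7 in GSC against 55.8 ± 12.1 in Kc. The other 4 were not called, with log2 folds of -0.03 for Lsp2, -0.19 for Fbp1, -0.06 for Fbp2 and 0.75 for apolpp. The part of somatic or yolk-bearing cells in the signal of the 9 genes was not tested.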

How the data were processed

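RNA from 3 GSC and 3 Kc samples was hybridised to 1-colour Drosophila oligonucleotide arrays. The authors deposited a linear intensity for each probe set on each array. MAS5 is named in the submitters' processing notes, with no version or settings given in the sources used here. The mean after trimming 2% of values at each end was 499.5 to 499.6 on all arrays, so no second normalization was applied. The number of arrays limits the precision. The 44 control probe sets were left out, which left 13966. The platform annotation gave 1 symbol for 12443, several for 327 and none for 1196, and RefSeq (Release 6 plus ISO1 MT) changed 0 symbols. It served for names, transcripts, overlaps and gene order only, since the array's build is not given. Where a gene had several probe sets, the one with the highest mean over the 6 arrays (log2) stood for it.

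GSC and Kc were compared on log2(signal + 38) with limma 3.58.1 in R 4.3.3 (intensity trend, robust variance, two-sided), with Benjamini-Hochberg adjustment over all probe sets, and the script was tested on simulated data. P-values reflect only how these samples vary among themselves, and that variation may be technical. The members and lists were chosen with earlier results of these data known. Named are the 9 genes with every probe set, the 2 genes nearest to each in pattern, the next genes in rank, called list members, and other genes for their place in a list or on the chromosome, the last after their values were seen. CG31357, CG3295 and CG6617 were matched through synonyms, the last 2 as Sou and Hou. Alternatives covered the pseudocount, a floor, 3 scalings, the replicate number as a block, the variance prior, a filter on dim probe sets, and leaving out each array.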

Additional observations from a re-analysis of the deposited data

How the results depend on the processing

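The median log2 fold of the 9 genes was 6.74 with a pseudocount of 1, 3.91 with the pseudocount at the median, 5.72 with a floor, 5.53 with scaling to the hybridisation controls, and 5.19 to 5.54 when 1 array at a time was left out. Of 120 values of single probe sets under these alternatives, 87 stayed within 1 SD of the reported value, 33 moved further and 0 changed sign, over a range of 2.31 to 8.33. Of 10 probe sets each, 10 moved with the pseudocount at the median, 9 with a pseudocount of 1 and 7 with scaling to the hybridisation controls. A floor moved 6, quantile normalization 1 and scaling to the median 0. Leaving out an array moved 0, a count fixed in advance, since dropping 1 of 3 arrays cannot shift a group mean by 1 SD. The 87 include all of those left-out fits. Called probe sets numbered 2765 as reported, 1690 with the pseudocount at the median and 2657 to 2757 with 1 array left out. Calls were 59.1% higher in GSC as reported and 80.4% (2810 higher, 685 lower) with scaling to the hybridisation controls, where the median over all probe sets was a log2 fold of 0.32, against 0.03 as reported. Of the listed genes, the energy kinases had 1 call with that scaling, and the Moesin and exchanger genes had 1 with it and 1 with the pseudocount at the median, where 0 and 2 were reported. The lists gave 0 calls for energy kinases, 3 for CTLH genes and 2 for Moesin and exchanger genes whichever array was left out. The actin control ratio in GSC over that in Kc was 2.42 to 2.58 without 1 array, against 2.48. The replicate number as a block gave 2739 calls. Deviations of same-numbered GSC and Kc arrays had correlations of -0.168, -0.011 and -0.0112 over the brighter probe sets. Those of differently numbered arrays ran from -0.188 to 0.170. With 3 arrays per group, this check cannot settle whether same-numbered arrays were paired. With choices made after seeing the data, the summed ovarian somatic signal in GSC over that in Kc was 1.23 without zfh1, against 0.297. The number of probe sets within the no-target control range in Kc was 8, or 6 with controls of the same array, and 6 to 8 when the controls of 1 Kc array were left out. Most Kc signals of the 9 genes were dim, which limits their folds.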
